A study of Caenorhabditis elegans with 2 samples.

Results

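The 336 transfer RNA (tRNA) genes on the 5 autosomes of Caenorhabditis elegans were examined for the recovery of tagged LIN-11 in late embryos. They were taken as every gene of biotype tRNA on the autosomes in the WBcel235 (ce11) annotation, each with its gene body and 200 bp on either side. They make up 336 of the 612 nuclear tRNA genes. The other 276 lie on the X chromosome and were set aside, as were the mitochondrial tRNA genes. The rule uses no measured value.

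Binding of LIN-11, a transcription factor of the LIM homeodomain class, was measured by ChIP-seq (sequencing of immunoprecipitated chromatin) in 1 group of 2 biological replicates. Both came from strain OP62, which carries unc-119(ed3) III and the transgene wgIs62, a stable insertion for LIN-11 with GFP and FLAG at its C terminus. Mixed-sex whole embryos, labelled late embryonic and 4.25 hours old, were collected by egg bleaching, chromatin was sonicated and fusion protein was precipitated through its GFP. Every region was called by the authors against 1 shared control alignment, no second condition was measured, and each value averages over all cells of the embryo.

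RNA polymerase III transcribes tRNA genes from a promoter that lies inside the gene. The internal A box and B box are recognised by the factor TFIIIC, which places TFIIIB upstream of the gene, and TFIIIB in turn recruits the polymerase. Transcription ends at a short run of T just downstream. The C. elegans genome holds many exact copies of its tRNA genes, spread over introns of protein-coding genes and the space between genes.

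The gene bodies below stand for the loci on which the results turn, and were read from RefSeq's WBcel235 sequence along the gene strand. Capitals mark the B box core GTTCNANNC and, where the gene has it, the A box core TNGCNNAG, with N standing for any base. The first 4 are autosomal tRNA genes with summits among the strongest, F57F5.t1 with an intron.
F29C4.t1, tRNA-Arg, chrIV:143982-144054, plus strand: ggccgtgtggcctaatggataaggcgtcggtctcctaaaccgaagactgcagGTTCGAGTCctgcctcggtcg
F57F5.t1, tRNA-Ile, chrV:12002176-12002260, plus strand: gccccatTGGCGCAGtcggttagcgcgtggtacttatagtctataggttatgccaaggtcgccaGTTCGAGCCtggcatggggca
ZC455.t1, tRNA-Ser, chrV:12780386-12780467, minus strand: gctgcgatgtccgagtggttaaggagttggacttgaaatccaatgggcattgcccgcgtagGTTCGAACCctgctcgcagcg
K06A4.t1, tRNA-Ala, chrV:9503562-9503633, plus strand: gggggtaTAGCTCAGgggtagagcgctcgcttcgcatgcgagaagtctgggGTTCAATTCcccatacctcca
The next gene is the tRNA-Ala gene just short of the reproducible set, which differs from K06A4.t1 by the single substitution C39T, counted from 1 at the 5′ end of K06A4.t1.
F44A2.t1, tRNA-Ala, chrV:9318202-9318273, plus strand: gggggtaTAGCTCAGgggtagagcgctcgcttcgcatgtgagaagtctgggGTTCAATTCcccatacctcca
The next 4 bodies are each shared letter for letter by 8 or more autosomal genes, of which some had a reproducible summit and others did not.
ZK622.t1, tRNA-Ala, chrII:5292332-5292403, plus strand: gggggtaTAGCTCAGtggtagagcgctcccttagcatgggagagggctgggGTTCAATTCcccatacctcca
Y39A1A.t1, tRNA-Thr, chrIII:10624742-10624813, minus strand: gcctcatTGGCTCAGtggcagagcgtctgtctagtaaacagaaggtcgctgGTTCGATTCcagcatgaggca
C09B9.t1, tRNA-Lys, chrIV:5038920-5038992, plus strand: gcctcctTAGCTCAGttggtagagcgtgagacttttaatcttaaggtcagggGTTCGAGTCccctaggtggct
T23F1.t2, tRNA-Pro, chrV:15465225-15465296, minus strand: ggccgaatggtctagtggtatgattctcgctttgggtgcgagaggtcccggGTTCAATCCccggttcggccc
The last is the tRNA-Sec gene, which inserts selenocysteine and had no summit in the pooled list.
K11H12.t1, tRNA-Sec, chrIV:658181-658266, plus strand: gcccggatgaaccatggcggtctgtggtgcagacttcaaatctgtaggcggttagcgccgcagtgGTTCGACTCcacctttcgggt

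The B box core stood on the gene strand in 319 of the 336 genes, or 94.9%, against 1.21% of consecutive genomic windows of 72 bp read on 1 strand and 2.40% read on either. The A box core, a strict spelling, stood in 155 genes, or 46.1%, against 3.41% of windows on 1 strand and 6.57% on either. Of the genes, 332 had a run of 4 T within 30 bp downstream. The median gene was 72 bp long, with the A box core starting at base 8 and the B box core at base 53. A match describes the letters and not a site in use. Genes with and without these cores had close shares of summits (defined next), which stood at 101 of the 319 genes with the B box core (31.7%) and at 5 of the 17 without it (29.4%), and at 34.2% of genes with the A box core against 29.3% of those without.

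Of the autosomal tRNA genes, 106 of 336 (31.5%, exact Clopper-Pearson 95% interval 26.6% to 36.8%) had a reproducible summit in the body or within 200 bp. Over all annotated autosomal genes, tRNA genes included and treated the same way, the share was 1.52%. Over consecutive autosomal windows of the median member length, 472 bp, it was 0.232%. Among autosomal small nucleolar RNA (snoRNA) genes, another class of small RNA genes, it was 51 of 313 (16.3%, 12.4% to 20.9%). Reproducible here means that the summit belongs to one of the 560 regions that passed the authors' cut on the irreproducible discovery rate. The named genes in this set carried the same signal and rank as in the list called from both replicates' pooled reads. A reproducible summit therefore need not rank high in each replicate. Each replicate gave nearly the same picture. Among the 560 regions of highest signal of replicate 1, summits stood at 104 tRNA genes (31.0%, against 1.54% of all autosomal genes), and among those of replicate 2 at 95 (28.3%, against 1.49%). The same 86 genes had a summit in the reproducible set and in both of these lists, and they are 82.7% of the genes of replicate 1 and 90.5% of those of replicate 2.

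Of the 415 reproducible summits on the autosomes, 101 (24.3%) lay at these genes. Neighbouring genes can share a summit, so genes with overlapping windows were also merged into 308 loci. Of these, 99 had a reproducible summit (32.1%, 27.0% to 37.7%), 98 in replicate 1 and 88 in replicate 2. Counting loci in place of genes left the share the same within its interval.

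The remaining tRNA genes were not uniformly without signal. In the whole pooled list of 20692 regions, which was called from both replicates' reads together and is long and permissive, 204 genes (60.7%) had a summit, against 22.9% of all autosomal genes and 9.40% of the windows. By rank of signal in that list, 7 genes had their strongest summit among the first 100 regions, 56 after that up to rank 280, and 43 up to rank 560. Another 23 lay up to rank 1000, 40 up to rank 5000, and 35 beyond it. The list gave no summit for 132 genes, and 111 had none in the pooled list or in either replicate's whole list of 21441 and 18735 regions. The tRNA genes thus ran from the head of the list to no call at all.

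The chromosome X genes stood close to them: 85 of 276 (30.8%) had a reproducible summit, a difference of 0.75 percentage points with a 95% Newcombe interval from −6.64 to 8.04. Annotated tRNA pseudogenes stood far lower. Of 180 on the autosomes, which resemble tRNA genes in sequence but are not counted as genes, 3 (1.67%, 0.345% to 4.79%) had a reproducible summit, and the same number did in each replicate. The difference from the tRNA genes was 29.9 percentage points (24.2 to 35.2), and 29.3 and 26.6 points in replicates 1 and 2. The B box core was common in the pseudogenes too, in 82.8% on either strand, and the A box core was more common than in the genes, at 74.4%. Of the 148 pseudogenes with the B box core on the gene strand, 2 had a reproducible summit. Most pseudogenes, 157 of 180, had a body with no identical copy among them, and the 3 with summits were all among these (1.91%). Of the tRNA genes with no identical copy, 17 of 86 (19.8%) had a reproducible summit. On chromosome V, where many of the pseudogenes lie, 2 of 27 such tRNA genes (7.41%) did. The windows of pseudogenes were not examined for repeated sequence. The 3 pseudogenes with summits are T08B2.t1, C52E12.t1 and D1046.t1, at ranks 193, 132 and 43, named after their values were seen.

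**Figure D1:**
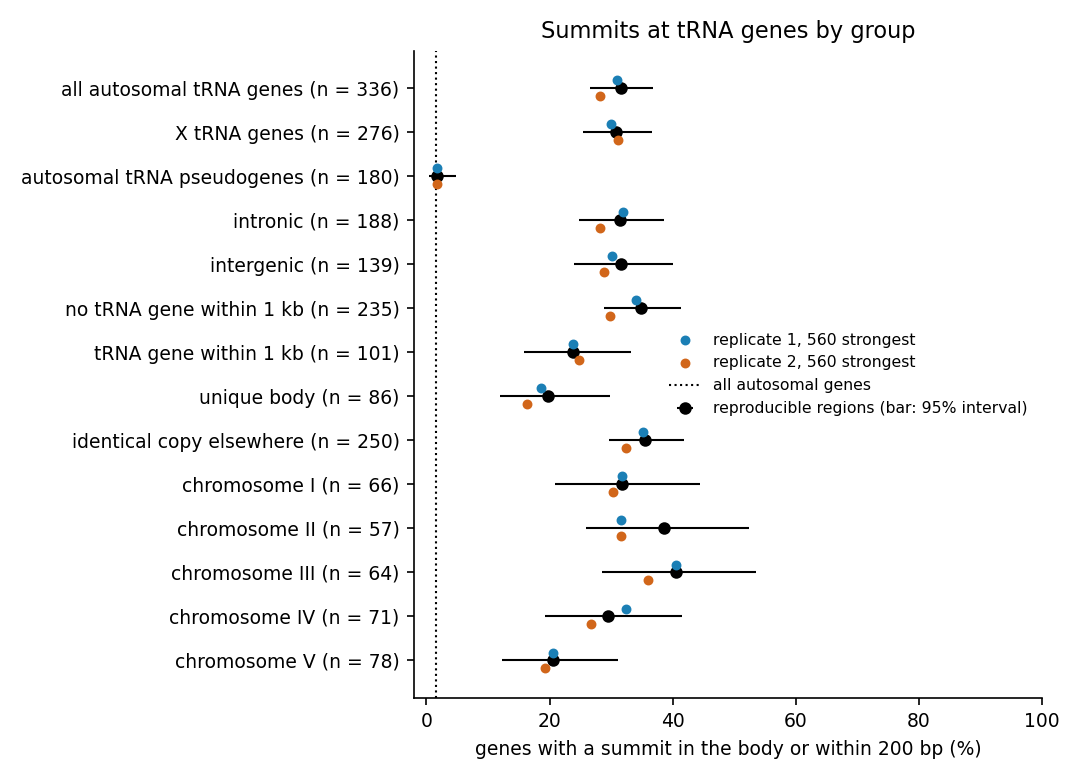
Share of genes with a summit (horizontal axis, percent) for groups of tRNA genes (rows, with the number of genes). Black points with bars give the reproducible regions with the exact 95% interval, coloured points the 560 strongest regions of each replicate, and the dotted line the 1.52% of all autosomal genes. The pseudogenes lie at 1.67%, next to that line, while the groups of tRNA genes lie between 19.8% and 40.6%.

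The strongest autosomal tRNA locus was sup-5, a tRNA-Trp gene known for its amber suppressor alleles, in an intron of fli-1, a flightless homolog (chrIII:8678497-8678568). Its signal, a value the authors' caller gives each region and which serves only to rank regions within a list, was 538 in the pooled list (rank 39), 288 in replicate 1 (rank 49) and 249 in replicate 2 (rank 34). The tRNA-Arg gene F29C4.t1, in an intron of the collagen gene col-99, followed at pooled rank 52, with ranks 46 and 77 in replicates 1 and 2 and signals of 481, 292 and 179 in the 3 lists. The tRNA-Cys gene C37A2.t1, in an intron of the cyclin E gene cye-1 (pooled signal 449, rank 66), had ranks 60 and 68. All of these lay inside introns, and each stood near the head of both replicates' lists.

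The next loci were of several amino acids. The tRNA-Ile gene T21B4.t1, in an intron of the collagen gene col-85, had pooled rank 68 and replicate ranks 66 and 61. The intron-bearing tRNA-Ile gene F57F5.t1 between genes had rank 76, with 92 and 58, and the tRNA-Ser gene ZC455.t1 rank 78, with 77 and 67. In these 3 loci the pooled signal was 441, 425 and 420.

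The tRNA-Arg gene F56F3.t1 stood at pooled rank 91, with 79 and 107 in the replicates, and K06A4.t1, in an intron of swt-5, at 103, with 119 and 85. The tRNA-His gene W09G10.t1, in an intron of the collagen gene col-72, stood at 111, with 106 and 140. The tRNA-Ala gene ZK622.t1 stood at 113, with 115 and 126. The 10 strongest loci thus came from 7 amino acids, and none moved by more than 34 ranks between its replicates. Of these 10, 7 lay in introns, as did 188 of all 336 genes, so the count does not set introns apart.

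At the lower edge of the reproducible set were the tRNA-Lys gene C09B9.t1 at pooled rank 544, with 510 in replicate 1 and 1139 in replicate 2, the tRNA-Glu gene C44B7.t1 at 552, with 800 and 603, and the tRNA-Val gene F58D5.t1 at 555, with 434 and 1978. Just outside were the tRNA-Tyr gene Y43F4A.t1 at 563, with 1842 and 443, the tRNA-Ala gene F44A2.t1 at 586, with 647 and 1082, and the tRNA-Leu gene Y110A2AL.t1 at 590, with 801 and 634. The pooled signal of these 6 ran from 120 down to 115. F44A2.t1 and K06A4.t1, whose bodies differ by 1 base, stood 483 ranks apart.

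Replicate ranks followed each other across loci. Over the 158 loci with a summit in both whole replicate lists, Spearman's rho of the ranks was 0.86, and over the 98 of them with a reproducible summit it was 0.75. Loci share the libraries and the control, and the second set was chosen on the same signal, so these values are descriptions. Of the 99 reproducible loci, 1 was missing from a replicate: the tRNA-Leu gene B0244.t2, at pooled rank 411, had rank 544 in replicate 1 and no summit in the whole list of replicate 2, and was named after its values were seen. Among the 98 others, the largest discrepancies, apart from F58D5.t1, were at the tRNA-Ala gene Y38E10A.t1, with rank 399 in replicate 1 and 3005 in replicate 2, and at the tRNA-Gly gene F10C1.t1, with 250 and 1429. F58D5.t1 and these genes stood higher in replicate 1.

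**Figure D2:**
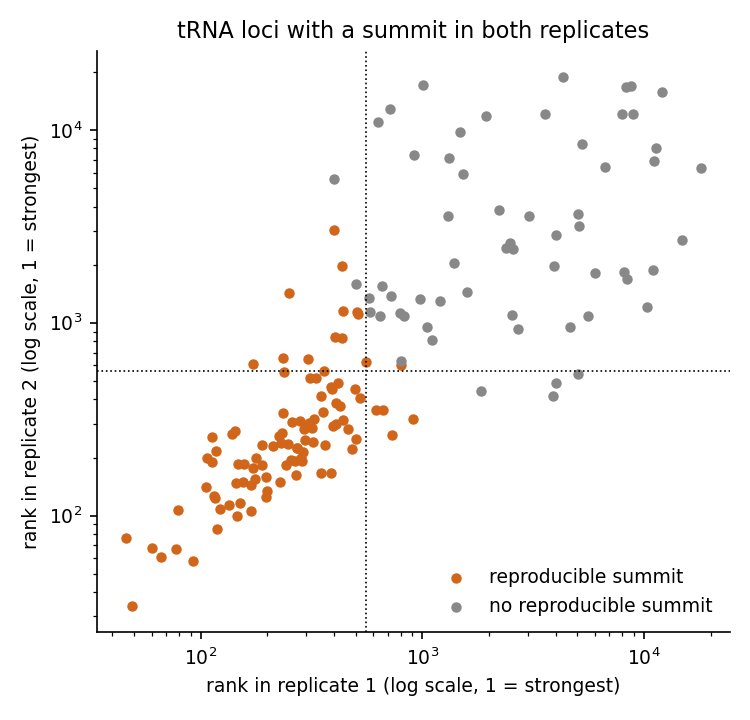
Rank of each autosomal tRNA locus in replicate 1 (horizontal) and replicate 2 (vertical), both on log scales with 1 the strongest, for the 158 loci listed in both. Orange points had a reproducible summit and grey points did not; dotted lines mark rank 560, and the strongest loci are close in both lists while the grey points scatter widely.

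Most summits lay inside the genes. Of the 101 reproducible summits, each assigned to the nearest tRNA gene, 71 (70.3%) were within the gene body, 21 upstream and 9 downstream, and 97 were within 50 bp of the body. The median position was base 18 of the gene (95% order-statistic interval 14 to 31), with the middle 2 quartiles from base 5 to base 42. Relative to the midpoint of the B box core, the median was −39 bp (−43 to −23), and 82 of 97 summits (84.5%) lay upstream of it. Against the median places of the cores, the middle of the distribution thus fell between the A box and the B box, nearer the A box.

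These positions have a limit of resolution, whose size is not known from the lists. For 78 of the 101, the deposited summit was the midpoint of its region. The 23 others had a median position of base 11 (6 to 18), 19 in the body and 0 downstream, and 22 of these 23 lay upstream of the B box. The 10 strongest loci are all among these 23, so a summit off the midpoint and a strong signal cannot be told apart here. In the 560 strongest regions of replicate 1 the median was base 25, and in those of replicate 2 base 19. The gene body held 71 of 101 summits (70.3%) in replicate 1 and 52 of 88 (59.1%) in replicate 2, where 26 lay upstream. In the 10 strongest loci, the reproducible summit stood at base 15 in sup-5, 10 in F29C4.t1, 4 in C37A2.t1, 13 in T21B4.t1, 31 in F57F5.t1, 12 in ZC455.t1, 14 in F56F3.t1, 35 in W09G10.t1 and 8 in ZK622.t1. In K06A4.t1 it stood at base 55, within the B box core that starts at base 52. It thus lay within the first 20 bases in 7 of the 10, and in 6 and 5 of them in the whole lists of replicates 1 and 2. Single genes shifted between replicates: the summit of C37A2.t1 was at base 7 in replicate 1 and at base 64 in replicate 2, and that of T21B4.t1 at bases 37 and 9.

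**Figure D3:**
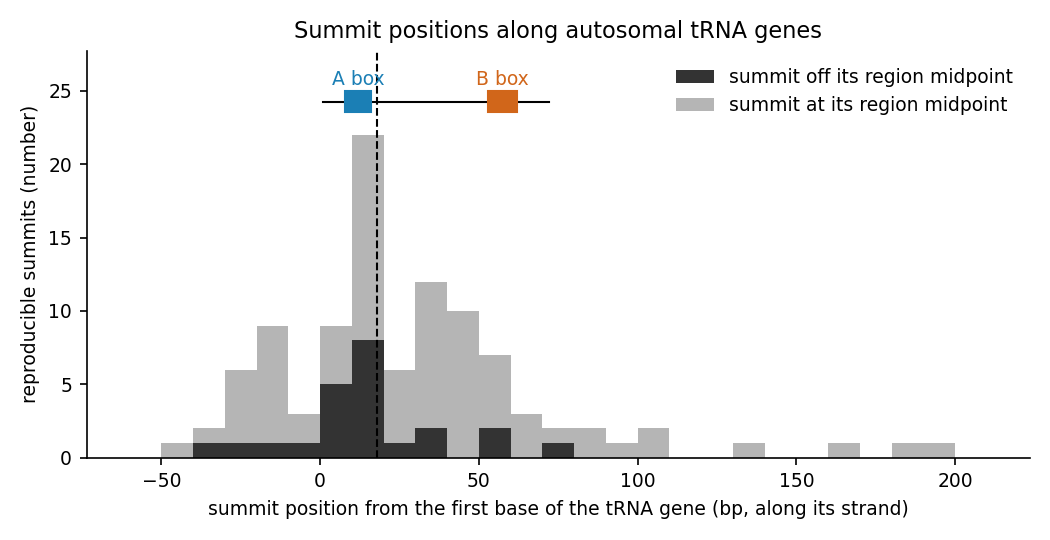
Number of reproducible summits (vertical) by position from the first base of the nearest autosomal tRNA gene in bins of 10 bp (horizontal). Dark bars hold the 23 summits off their region's midpoint, light bars the 78 at it; the line with boxes gives the median gene of 72 bp with the A box and B box at their median places, and the dashed line the median at base 18.

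By amino acid, the share of genes with a reproducible summit ran from 1 of 11 for tRNA-Tyr (9.09%, 0.230% to 41.3%) to 4 of 6 for tRNA-Cys (66.7%, 22.3% to 95.7%). Every amino acid class other than tRNA-Sec had at least 1 gene with a reproducible summit. Around the upper end stood tRNA-Glu with 9 of 18, tRNA-Arg with 8 of 17 (47.1%), tRNA-Lys with 13 of 28 (46.4%) and tRNA-Thr with 9 of 20. A summit shared by neighbouring genes counts for each of them. The summits counted for the tRNA-Thr genes C16C8.t2, W09G10.t3 and W10G11.t2 lay nearest to a tRNA-Lys gene. That counted for the tRNA-Lys gene T23F1.t1 lay nearest to the tRNA-Pro gene T23F1.t2. At the lower end were tRNA-Ser with 5 of 21 (23.8%), tRNA-Gly, the largest class, with 7 of 35, and tRNA-Pro with 4 of 22 (18.2%). The classes are small, and the intervals of neighbours in this order overlap widely.

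In the replicates alone, tRNA-Cys had 4 of 6 and tRNA-Arg 8 of 17 in both, while tRNA-Thr had 6 and 8 of 20, tRNA-Leu 8 and 5 of 22, and tRNA-Gly 8 and 5 of 35. All 8 tRNA-Arg genes with a reproducible summit were among the stronger 280 regions, whereas none of the 4 tRNA-Asn genes was. The single tRNA-Sec gene, K11H12.t1, appeared only in the whole list of replicate 1, at rank 16325. The 2 genes whose amino acid the annotation leaves undetermined had no reproducible summit but were in the pooled list.

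The highest gene of each further class shows how the levels spread. The strongest tRNA-Lys gene, B0350.t1, had pooled rank 116, with 146 and 99 in the replicates, the strongest tRNA-Asp gene, F28F8.t3, 118, with 122 and 108, and the strongest tRNA-Leu gene, C04A2.t1, 119, with 134 and 113. tRNA-Pro was led by T23F1.t2 at 140, tRNA-Val by C05G6.t1 at 147, tRNA-Phe by Y39B6A.t9 at 150, tRNA-Met by C14B9.t1 at 154, tRNA-Thr by Y39A1A.t1 at 162 and tRNA-Glu by K02B12.t1 at 171. The lowest leaders were those of tRNA-Gly, Y57G11B.t1 at 195, tRNA-Gln, Y4C6B.t1 at 214, tRNA-Tyr, T22F7.t1 at 244, and tRNA-Asn, Y116F11A.t1 at 293.

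**Figure D4:**
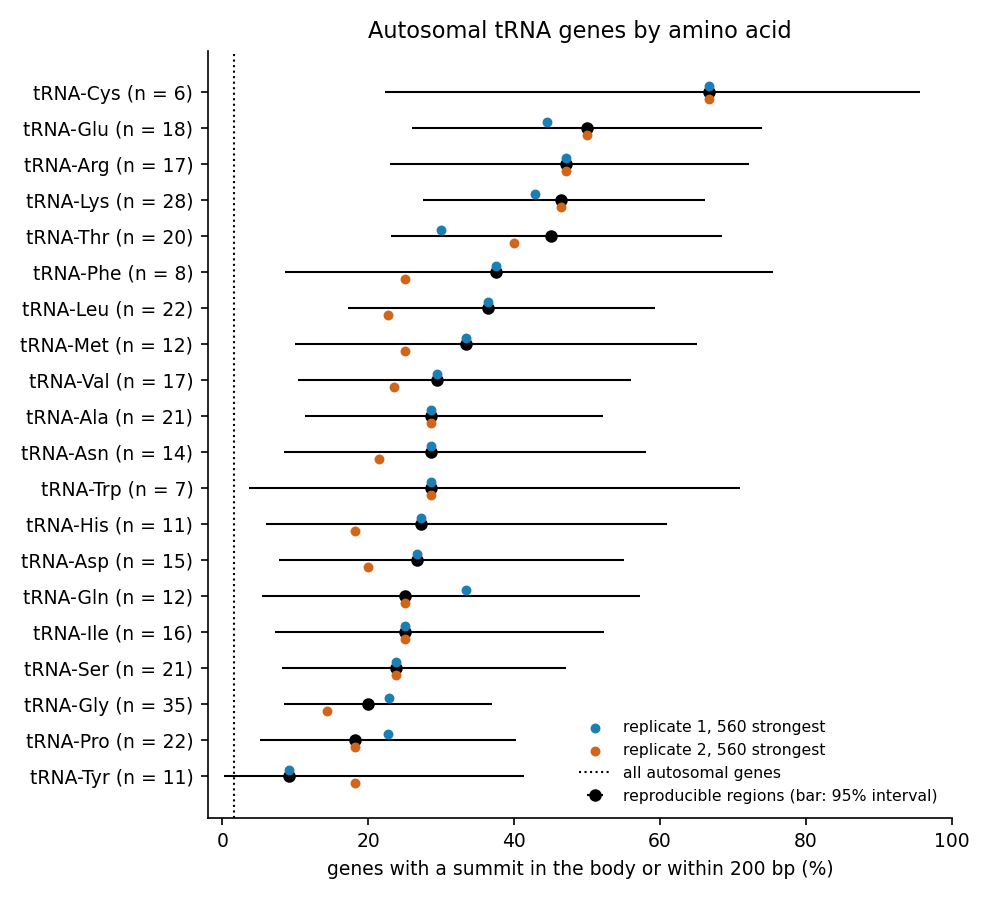
Share of autosomal tRNA genes with a summit (horizontal axis, percent) by amino acid (rows, with the number of genes), ordered by the reproducible share. Black points with bars give the reproducible regions with the exact 95% interval, coloured points the 560 strongest regions of each replicate, and the dotted line all autosomal genes. From 66.7% for tRNA-Cys to 9.09% for tRNA-Tyr the intervals overlap.

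The genes that carry an intron, which is spliced out of the tRNA precursor, numbered 17, and 4 of them (23.5%, 6.81% to 49.9%) had a reproducible summit against 102 of 319 (32.0%) without one. They were F57F5.t1 at rank 76, the tRNA-Tyr gene T22F7.t1 at 244, with replicate ranks 226 and 258, the tRNA-Leu gene C14B9.t2 at 254, with 348 and 166, and the tRNA-Leu gene ZK822.t1 at 314, named after its values were seen.

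T22F7.t1 has 1 identical partner in the genome, Y43F4A.t1, and the pair stood on either side of the reproducible cut. Both bodies are the same 84 bases. T22F7.t1 had pooled rank 244, with 226 in replicate 1 and 258 in replicate 2. Y43F4A.t1 had pooled rank 563, with 1842 in replicate 1 and 443 in replicate 2, so the gap lay mostly in replicate 1. Of the 50 bases directly upstream, 16 are the same letter at the same place. The shared body and the differing upstream stretches, shown with the B box and A box cores in capitals, are these.
T22F7.t1 and Y43F4A.t1 body, chrIII:535382-535465 for T22F7.t1, plus strand: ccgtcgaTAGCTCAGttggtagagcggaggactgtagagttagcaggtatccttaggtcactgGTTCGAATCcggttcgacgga
T22F7.t1 upstream, chrIII:535332-535381, plus strand: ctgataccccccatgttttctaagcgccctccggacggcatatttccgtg
Y43F4A.t1 upstream, chrIII:13224516-13224565, plus strand: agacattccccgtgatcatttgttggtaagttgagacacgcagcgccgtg

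Identical copies commonly stood on different sides of the cut. The autosomal genes held 43 families of 2 or more identical bodies, 242 genes in all. In 34 of these families, with 214 genes, some copies had a reproducible summit and others did not, 81 genes in all having one. In 8 families, with 25 genes, no copy did, and in 1, the tRNA-Arg family of F14B4.t1, all 3 did. Over all autosomal tRNA genes the share was 31.5%, so mixed families of several copies are not in themselves particular to identical bodies. Copies on different sides can also lie close to the cut.

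The 4 families printed above, chosen after their values were seen, hold copies with and without a reproducible summit. Of the 9 genes with the body of C09B9.t1 (tRNA-Lys), 5 had a reproducible summit, at pooled ranks 140 to 544, 1 other was in the pooled list at rank 9550 and 3 were not in it. Of the 8 with the body of Y39A1A.t1 (tRNA-Thr), 5 did, at ranks 162 to 475, and F36D4.t2 was in none of the 3 whole lists. Among the 5, C16C8.t2 and W10G11.t2 share their summits with a tRNA-Lys gene. Those summits lay inside the tRNA-Lys bodies, at base 39 of C16C8.t1 and base 63 of W10G11.t1. Of the 8 with the body of ZK622.t1 (tRNA-Ala), 3 did, at ranks 113 to 269, while another 3 followed between ranks 643 and 822. Of the 11 with the body of T23F1.t2 (tRNA-Pro), 1 did, at rank 140, and 5 were not in the pooled list. The summit of T23F1.t2 is shared with the tRNA-Lys gene T23F1.t1, which lies 66 bp away and carries the tRNA-Lys body of C09B9.t1. That summit lay at base 41 of T23F1.t2, inside the tRNA-Pro body, and gives rank 140 in both families. The next tRNA-Lys copy, K04C2.t3, stood at rank 203. One body was thus found with summits among the strongest and with no call at all.

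**Figure D5:**
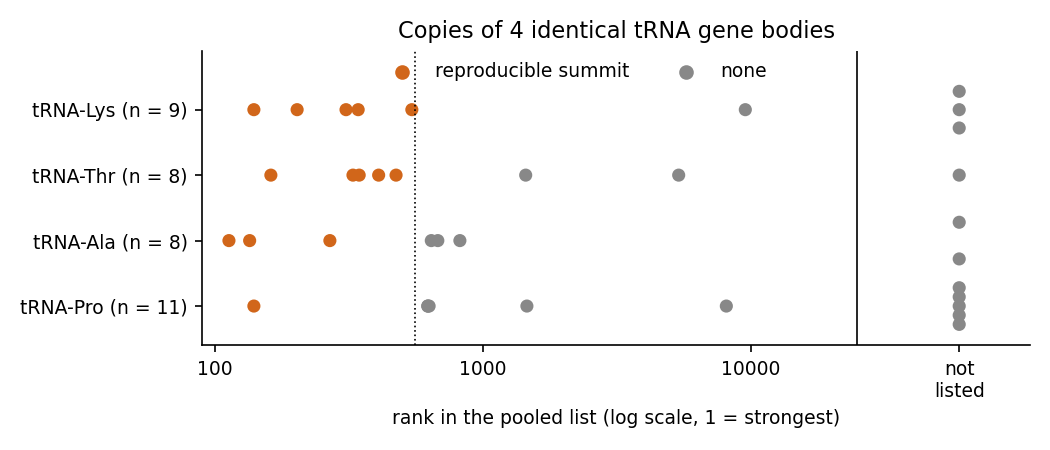
Pooled-list rank (horizontal, log scale, 1 the strongest) of every autosomal gene that carries one of 4 tRNA gene bodies (rows, with the number of copies). Orange points had a reproducible summit and grey points did not, the dotted line marks rank 560 and the right-hand column holds copies not in the pooled list. Each row has copies on both sides of the line, 5 of 9 for tRNA-Lys and 1 of 11 for tRNA-Pro having a reproducible summit. The points at rank 140 in the tRNA-Lys and tRNA-Pro rows are the same summit.

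Genes with an identical copy somewhere in the nuclear genome more often had a reproducible summit than those with a unique body: 89 of 250 (35.6%, 29.7% to 41.9%) against 17 of 86 (19.8%, 12% to 29.8%). The difference was 15.8 percentage points (4.66 to 25.2), and it was 16.6 points (5.54 to 25.7) in replicate 1 and 16.1 (5.39 to 24.9) in replicate 2. Genes with 1 to 4 copies had the highest share, 21 of 51 (41.2%), followed by 40 of 114 (35.1%) with 5 to 14 and 28 of 85 (32.9%) with 15 or more. The unique genes were also grouped by their distance to the closest other tRNA gene of the same amino acid. Genes of undetermined amino acid were compared only among themselves. A summit stood at 13 of the 49 genes (26.5%, 14.9% to 41.1%) within 1 to 3 edits of another and at 4 of 21 (19%, 5.45% to 41.9%) within 4 to 10. It stood at 0 of 16 beyond that or, as for tRNA-Sec, with no other gene to compare. This allows a share of up to 20.6% by the upper exact bound, so the intervals of these groups overlap. Unique genes with strong summits exist all the same, among them F57F5.t1, K06A4.t1 and C05G6.t1.

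No source used here says how reads matching several copies were handled, so the windows themselves were examined for repeated sequence. A median of 91.7% of the 50-letter words in a window occurred once in the genome on either strand. No gene of the 15 with under 60% unique words had a reproducible summit, which allows a share of up to 21.8%, 16 of 62 (25.8%) did between 60% and 90%, and 90 of 259 (34.7%) did at 90% or more. A copied body fills only a small part of its window, so windows of genes with an identical copy reached up to 94.6% unique words with the repeated body, where most summits lay, still inside. These shares therefore do not bear on reads within the body, and the part of read handling in the difference between copied and unique genes was not tested.

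Genes within and outside a host gene had close shares. Of 188 genes in introns of protein-coding genes, 59 (31.4%) had a reproducible summit, and of 139 between genes, 44 (31.7%), a difference of −0.27 percentage points (−10.5 to 9.70). Of the 9 genes that overlap a coding gene's exon, 3 did. Among the intronic ones, those on the strand of their host stood at 36 of 111 (32.4%) and those on the other strand at 23 of 77 (29.9%). The 59 intronic genes with a summit lay in 56 host genes. Near and far from a coding gene's start the shares were also close, with 33 of 98 (33.7%) within 500 bp and 73 of 238 (30.7%) farther away.

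A second tRNA gene nearby went with a lower share. Of 101 genes with another tRNA gene within 1000 bp, 24 (23.8%, 15.9% to 33.3%) had a reproducible summit, against 82 of 235 isolated ones (34.9%, 28.8% to 41.4%), which is 11.1 percentage points (0.281 to 20.7) more for isolated genes. The difference was 10.3 points (−0.54 to 19.9) in replicate 1 and 5.03 points (−5.71 to 14.6) in replicate 2, so neither replicate alone set it apart from 0. In windows of at least 90% unique words, a setting not planned in advance, it was 18.1 points (4.41 to 29.0), from 78 of 201 (38.8%) and 12 of 58 (20.7%). There it was 13.7 points (−0.28 to 25.1) in replicate 1 and 10.4 points (−3.27 to 21.5) in replicate 2, both with intervals that include 0.

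Within these close neighbours, the relative strand separated the genes, a split made after the values were seen. With the nearest tRNA gene on the same strand, 14 of 32 (43.8%, 26.4% to 62.3%) had a reproducible summit, and with it on the opposite strand 10 of 69 (14.5%, 7.17% to 25%). The difference was 29.3 points (10.6 to 47.4), and 29.3 and 27.8 points in replicates 1 and 2. Both genes of a pair enter this count, so the interval is too narrow.

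The 28 loci that hold 2 genes, with 48 to 333 bp between the bodies, show this by locus. Of the 17 divergent pairs, whose 5′ ends face each other, 1 had a reproducible summit, the tRNA-Gly pair F49D11.t2 and F49D11.t1. Of the 4 convergent pairs 2 did, and of the 7 pairs on the same strand 5 did, among them the tRNA-Ser pair F42A10.t1 and F42A10.t2 at rank 117 and 3 pairs of a tRNA-Thr with a tRNA-Lys gene on chromosome II. The median share of unique words was 85.8% in the divergent, 88.7% in the convergent and 90.1% in the same-strand pairs, and its part in the result was not tested. Most divergent pairs were of tRNA-Gly or of tRNA-Pro genes, classes at the lower end of the shares by amino acid. Strand and amino acid thus cannot be told apart in these pairs. In windows of at least 90% unique words, neighbours on the same strand stood at 8 of 23 (34.8%) and on the opposite strand at 4 of 35 (11.4%), a difference of 23.4 points (1.77 to 44.8). It was 32.0 points (9.04 to 52.9) in replicate 1 and 20.5 points (−1.48 to 42.4) in replicate 2.

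By chromosome, the share ran from 16 of 78 on V (20.5%, 12.2% to 31.2%) to 26 of 64 on III (40.6%, 28.5% to 53.6%), with 21 of 66 on I (31.8%), 22 of 57 on II (38.6%) and 21 of 71 on IV (29.6%). The other autosomes together exceeded V by 14.4 points (2.72 to 24.0), a comparison chosen after the values were seen, and by 13.6 and 11.8 points in replicates 1 and 2. Chromosome V also held the most unique bodies, 27 of its 78 genes, of which 2 (7.41%) had a reproducible summit, against 14 of 51 (27.5%) with a copy. Within it, 12 of 54 genes on the arms and 4 of 24 in the centre had one. Over all autosomes the arms (69 of 226, 30.5%) and centres (37 of 110, 33.6%) had overlapping intervals.

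In base composition, the 50 bp upstream held a median of 52% A and T at genes with a reproducible summit (middle quartiles 46% to 58%) and 58% at the others (50% to 64%). The downstream 50 bp were at 73% and 74%, and the bodies were at 58.3% G and C in both sets. The ranges overlap broadly.

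Other products and parts of the RNA polymerase III system were looked up by name. Of 9 further small RNA genes found, rpr-1, the RNA of RNase P, which trims the 5′ ends of tRNA precursors, had a reproducible summit at pooled rank 64, with 84 and 41 in the replicates. mrpr-1, the RNA of the related RNase MRP, had one at 122, with 100 and 183. The Y RNA gene yrn-1 and 6 annotated 5S ribosomal RNA genes had none, not even in the pooled list. Their windows were not examined for repeated sequence, so the missing calls do not show that recovery was absent. Another 10 names of 5S genes were absent from the annotation and U6 genes could not be identified, so these gave no value. Over all autosomal genes, 1.52% had a reproducible summit and 22.9% one in the pooled list, and over autosomal snoRNA genes 16.3% and 37.1%.

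Among 15 genes for proteins of the polymerase III pathway, counted within 1000 bp of a start site, 2 had a reproducible summit and 11 had a summit in the pooled list. Over all autosomal protein-coding genes counted in that way the shares were 2.11% and 39.2%, and with 15 genes nothing particular to the pathway is read from the counts. The 2 were rpac-19, a subunit shared by polymerases I and III, at rank 300, with 346 and 257 in the replicates, and ssb-1, the La protein that binds the 3′ ends of polymerase III transcripts, at 272, with 374 and 217. The largest subunit rpc-1 was at pooled rank 6719, the TFIIIC gene tftc-1 at 4084 and the repressor gene mafr-1 at 1629, while the TFIIIB gene brf-1 had no summit in the lists.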

How the data were processed

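The authors deposited, per their notes with the files, region lists on assembly ce11 for each replicate, for the pooled alignments and for the 560 regions that passed the irreproducible discovery rate. The sources used here name no threshold, and the aligner and caller were likewise not given there. The deposited signal of each region is the authors' and was used only to rank regions within a list; the deposited summit offset gave positions. Read counts and depth are unknown from these lists, so intervals cover counting over genes only, and genes that share a summit are not independent. The replicates are labelled biological.

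Gene models came from Ensembl release 115 for WBcel235, and sequence and pseudogenes from RefSeq for the same assembly. Intervals at 95% were exact Clopper-Pearson for shares, Newcombe for differences and order-statistic for medians (scipy 1.17.1, statsmodels 0.14.6). Counting was tested on simulated summits. Genes were named by signal: the 10 strongest loci, the strongest per amino acid, 3 on each side of the cut, 3 with the most discordant replicate ranks, tRNA-Sec and up to 3 with introns; other names were chosen after seeing values. The members and lists were chosen with earlier results of these data known. Alternatives used each replicate alone, 280 reproducible regions or a longer pooled list, flanks of 100 and 500 bp, region overlap, unique bodies and single-gene loci. Unplanned alternatives used windows of at least 90% unique words, genes with identical copies only, and summits off their region's midpoint.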

Additional observations from a re-analysis of the deposited data

How the results depend on the processing

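Of 59 alternative values for the 7 main results, 52 stayed within the 95% interval of the value reported and none reversed a difference set apart from 0. The share of genes with a summit was 18.8% with the stronger 280 of the reproducible regions, 39.9% with as many regions again added from the pooled list and 19.8% over unique bodies; by locus it was 19.2% and 40.6% in the first 2. Fewer or more regions move these by construction. Taking only summits off their region's midpoint, added after seeing the data, put the median position at base 11 and the median distance from the B box at −46 bp. With 1 replicate alone the share lay between 28.3% and 31.0% of genes and between 28.6% and 31.8% of loci. The interval of the difference between genes with and without a tRNA neighbour included 0 in each replicate alone, with 500-bp flanks, with a neighbour distance of 500 bp, with unique bodies and with fewer or more regions. No paired analysis was possible because there is 1 group. No library of an untagged strain or of another tagged protein was analysed here, so recovery at tRNA genes with other proteins is not compared. Depth is unknown, so a gene without a summit is one without a call.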
